A study of Homo sapiens with 4 samples.

Results

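Phospholipases A2 cut a fatty acid, often arachidonic acid, from membrane phospholipids, and prostaglandin E synthases act further along the route that turns arachidonic acid into prostaglandin E2. The set described here holds 10 genes of these families, chosen by symbol: the phospholipases PLA2G2A, PLA2G4A, PLA2G4C, PLA2G6, PLA2G7, PLA2G12A and PLA2G15, and the synthases PTGES, PTGES2 and PTGES3. Of these, 9 are among the 17902 genes of the deposited table, and PTGES was not analysed here. RNA was sequenced from LNCaP, a human prostate cancer cell line, in 2 libraries of control cells, whose genotype is labelled WT, and 2 libraries in which ETV5, a transcription factor of the ETS family, was overexpressed (labelled ETV5OE, written ETV5_OE here). The labels name neither a vector nor clones and give the controls no agent. They do not say whether the libraries of a group came from separate cultures, and the descriptions of the ETV5_OE libraries differ only in a final R, on replicate 2. In Control a final R marks replicate 1, and the descriptions also carry different numbers (con-1R and con-2). The meaning of the R is not given. The replicates may therefore be technical, and a p-value speaks of nothing wider than their spread. Within each group the counts of the libraries differed by more than sampling noise (chi-square per degree of freedom 43.9 in Control and 33.1 in ETV5_OE). The genes were gathered with the difference between ETV5_OE and Control already known, PLA2G4A being one of the larger rises. Their differences between the groups are therefore a description, and the calls among them are not evidence for anything further.

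In textbook terms, cytosolic phospholipase A2 responds to calcium and favours arachidonate at the middle position of the glycerol backbone. The secreted enzymes act outside the cell, and calcium-independent and lysosomal forms serve membrane turnover. Freed arachidonate goes to the cyclooxygenases, which make prostaglandin H2 for the E synthases, to the lipoxygenases, which lead to leukotrienes and hydroxy acids, or back into phospholipid through acyl-CoA synthetases and acyltransferases.

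Promoter sequence is shown for PLA2G4A and PLA2G2A, the genes of the set with the largest differences, and for PLA2G6, whose fitted difference was nearest to 0. Each run is the 250 bases before an annotated RefSeq start in GRCh38.p14, written 5′ to 3′ on the gene's strand. Capitals mark GGAA, the core that ETS factors recognise, or TTCC, its reverse complement. The windows lie at chr1:186828699-186828948 on the plus strand (PLA2G4A), at chr1:19979660-19979909 on the minus strand (PLA2G2A, the first listed of 3 annotated starts) and at chr22:38181831-38182080 on the minus strand (PLA2G6).
PLA2G4A: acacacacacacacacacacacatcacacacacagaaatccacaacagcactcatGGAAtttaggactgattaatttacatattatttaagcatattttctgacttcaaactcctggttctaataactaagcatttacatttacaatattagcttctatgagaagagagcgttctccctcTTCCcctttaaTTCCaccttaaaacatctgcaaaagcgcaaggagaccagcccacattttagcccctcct
PLA2G2A: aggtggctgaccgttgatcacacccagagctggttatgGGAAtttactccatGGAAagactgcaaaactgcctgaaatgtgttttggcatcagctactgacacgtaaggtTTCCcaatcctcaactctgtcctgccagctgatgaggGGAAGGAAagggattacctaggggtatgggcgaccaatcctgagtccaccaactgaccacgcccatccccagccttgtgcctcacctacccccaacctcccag
PLA2G6: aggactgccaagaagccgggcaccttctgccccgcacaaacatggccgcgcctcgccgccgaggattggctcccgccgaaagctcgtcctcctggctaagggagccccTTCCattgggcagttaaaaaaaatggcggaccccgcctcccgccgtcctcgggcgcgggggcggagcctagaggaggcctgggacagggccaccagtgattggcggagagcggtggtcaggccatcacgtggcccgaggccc

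The GGAA core, searched on both strands, was present 3 times in the PLA2G4A window, 5 times in the PLA2G2A window and 1 time in the PLA2G6 window. It occurred in 92.74% of all 35116 promoter windows of the same length, with a median of 3 per window, so its presence does not set these genes apart. The longer form GGAAGT was absent from the printed windows, occurred 1 time in another window of PLA2G2A and 1 time in a window of PLA2G7, and was present in 19.5% of all windows. The AP-1 form TGANTCA was absent from every window of the 8 genes with an entry and occurred in 6.57% of all windows. These are matches of letters before annotated starts, not binding sites. The starts of PLA2G4A, of PLA2G7 and of the PLA2G2A window with GGAAGT were not found in a GENCODE transcript, so these windows rest on RefSeq alone.

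The windows differed more in CpG content. PLA2G4A had 2 CpG dinucleotides and 38.8% G plus C, and the 3 windows of PLA2G2A had 4, 2 and 3 CpGs. PLA2G7 had 7 CpGs at one annotated start and 20 at the other. PLA2G6, PLA2G12A, PLA2G15 and PTGES3 had 22, 26, 29 and 30 CpGs in their single windows, and the 3 windows of PTGES2 had 29, 21 and 35. The median over all windows was 11, and 29.31% of windows had 3 or fewer. PLA2G4C is named only.

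Depth was 20639543 to 30227070 counts per library. ETV5 stood at 0.717 and 1.29 CPM (counts scaled by library size and set to a common total) in Control and at 23.9 and 21.8 CPM in ETV5_OE, which fits the labels, and the related factor ETV1 went from 371 and 264 CPM to 26.0 and 31.6 CPM in the same libraries. Any difference below therefore accompanies both higher ETV5 and lower ETV1, which cannot be told apart. Of 11 prostate luminal marker genes all 11 were measured, and their summed level was 7670 and 8143 CPM in Control and 5472 and 6038 CPM in ETV5_OE, with KLK3 the largest single part in every library. None of the 11 passed in edgeR, 6 had an unadjusted p under 0.05, and in 7 both ETV5_OE libraries were below both controls. Over all genes tested, 7.14% had such a p in either direction and 18.8% had both ETV5_OE libraries below both controls. KRT8, KRT18 and FOLH1 had log2 fold changes of 0.21, 0.12 and 0.023. Fibroblast markers, with 4 of 8 genes in the table, summed to 86.0 CPM in ETV5_OE replicate 1 and to between 11.0 and 12.6 CPM in the other libraries. Of 11 macrophage markers only CD68 was in the table, at 5.71 and 8.45 CPM in Control and 9.10 and 16.9 CPM in ETV5_OE.

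PLA2G4A and PLA2G2A rose in ETV5_OE, and PLA2G7 was above the controls in both ETV5_OE libraries without passing the test. The other 6 genes of the set did not pass either, and all of these except PLA2G4C, which was near the detection limit, had log2 fold changes between -0.13 and 0.24. In the fit of edgeR's quasi-likelihood test across 16194 genes, 2 of 9 genes of the set passed an adjusted p of 0.05, both higher. That call was made for 0.253% of all genes tested as higher and for 0.401% in either direction. The median log2 fold change of the 9 was 0.24, against 0.0044 over all genes tested. All 9 passed the filter on low counts. Since the contrast was used in choosing the set, nothing is read from this excess.

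PLA2G4A (gene ID 5321; chromosome 1, 186828949 to 186988981) encodes the cytosolic enzyme that releases arachidonic acid. Its read counts were 539 and 565 in Control and 3257 and 3439 in ETV5_OE. Scaled to library size, this was 17.6 and 27.0 CPM in Control and 146 and 144 CPM in ETV5_OE. The lower ETV5_OE library was well above the higher control, and the controls differed from each other more than the ETV5_OE libraries did. The fitted log2 fold change was 2.70 (SE 0.22, edgeR adjusted p = 0.00358), the 25th highest of all genes tested. The authors' deposited table lists a linear fold of 5.91 (p = 0.0573, unadjusted, test not given), where the edgeR fit gives a linear fold of 6.52. Without ETV5_OE replicate 1 or without ETV5_OE replicate 2 the log2 fold change was 2.69 and 2.71, and the call was lost (adjusted p = 0.155 and 0.125), as were all calls in those settings.

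PLA2G2A (gene ID 5320; chromosome 1, 19975431 to 19980434) encodes the secreted group IIA enzyme, which is abundant in inflamed tissue fluids and acts on bacterial membranes. Its counts were 97 and 76 in Control and 233 and 314 in ETV5_OE. As CPM, it stood at 3.16 and 3.63 in Control and at 10.4 and 13.1 in ETV5_OE. The groups did not overlap, and each pair lay close together. The log2 fold change was 1.80 (SE 0.28), with an adjusted p of 0.0477 in edgeR. For this gene the authors' deposited table lists a linear fold of 2.83 (p = 0.0407, unadjusted), where the edgeR fit gives a linear fold of 3.47. The call lies at the edge of the threshold: it was lost with no low count filter (adjusted p = 0.0639) or a CPM filter (0.0515), without robust estimation (0.0938), with limma-voom (0.107), and without ETV5_OE replicate 1 or 2 (0.418 and 0.487). Fibroblasts are a known source of PLA2G2A. The summed fibroblast markers were at 86.0 CPM in ETV5_OE replicate 1, where PLA2G2A was at 10.4 CPM, and at 11.7 CPM in ETV5_OE replicate 2, where it was at 13.1 CPM, and their part in the result was not tested.

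**Figure D1:**
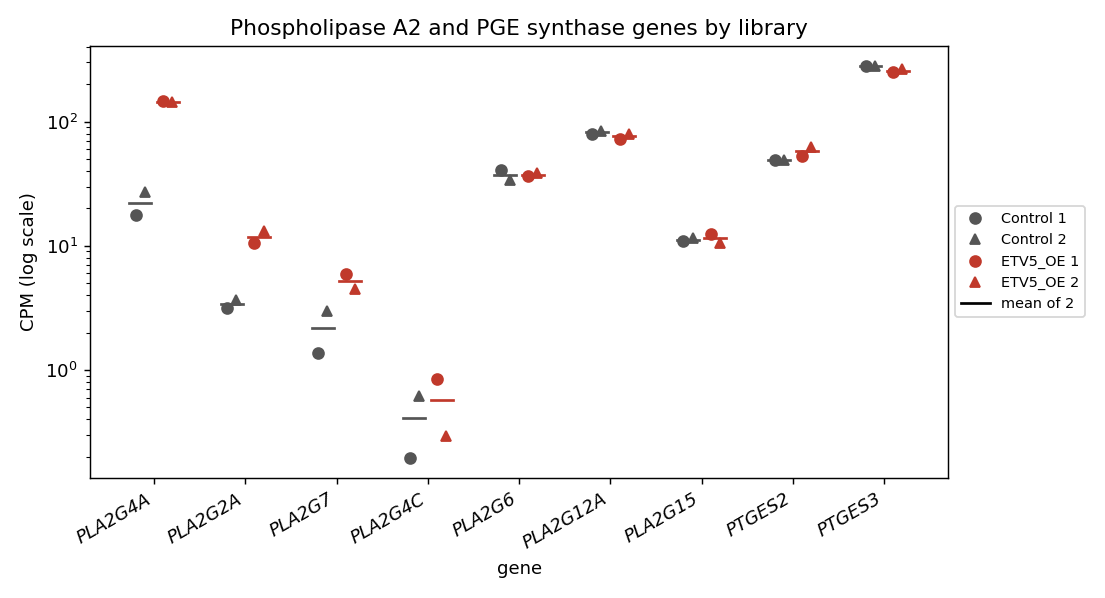
Level of each gene in each library, in CPM on a log axis; circles are replicate 1, triangles replicate 2, grey Control, red ETV5_OE, and bars the mean of 2 libraries. PLA2G4A, at 17.6 and 27.0 CPM in Control and 146 and 144 CPM in ETV5_OE, shows the widest gap between groups, followed by PLA2G2A.

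PLA2G7 encodes the plasma enzyme that hydrolyses platelet-activating factor and oxidised phospholipids (gene ID 7941; chromosome 6, 46704201 to 46735721). It stood at 1.37 and 2.96 CPM in Control and at 5.92 and 4.51 CPM in ETV5_OE. The groups did not overlap, but each pair of libraries was spread and the counts were low, between 42 and 132. The log2 fold change of 1.28 (SE 0.45) did not pass (edgeR adjusted p = 0.540), and it ranged from 0.82 to 1.92 as single libraries were left out. Separation of this kind, with both ETV5_OE libraries above both controls, was found for 18.8% of all genes tested. Macrophages are a known source of PLA2G7, and the part of such cells in this value was not tested. CD68, the only 1 of 11 macrophage markers in the table, stood at 5.71 and 8.45 CPM in Control and at 9.10 and 16.9 CPM in ETV5_OE. TDRD6 overlaps PLA2G7 in the annotation, and its level was at most 0.717 CPM in any library. No strand setting is given in the sources used here, so reads of overlapping genes cannot be told apart.

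PLA2G4C, the membrane-bound calcium-independent relative of PLA2G4A, was near the detection limit (gene ID 8605; chromosome 19, 48047846 to 48110817). It had 6 and 13 counts in Control and 19 and 7 in ETV5_OE, so the groups overlapped (log2 fold change 0.53, SE 0.83, edgeR adjusted p = 0.951). In bulk RNA such as this, fewer cells with a transcript and less of it per cell cannot be told apart.

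PLA2G6, PLA2G15 and PLA2G12A had the smallest fitted differences among the phospholipases. PLA2G6, the calcium-independent enzyme of membrane remodelling (gene ID 8398; chromosome 22, 38111495 to 38181830), stood at 40.5 and 33.7 CPM in Control and 36.3 and 38.3 CPM in ETV5_OE. Both ETV5_OE values lay between the controls, with a log2 fold change of 0.0052 (SE 0.17). PLA2G15, the lysosomal phospholipase A2 (gene ID 23659; chromosome 16, 68245373 to 68261058), stood at 10.9 and 11.5 CPM in Control and 12.4 and 10.5 CPM in ETV5_OE. Its controls lay between the ETV5_OE values, with a log2 fold change of 0.035 (SE 0.22). The signs of these small differences depended on the scaling and are not a direction. PLA2G12A, the secreted group XII enzyme (gene ID 81579; chromosome 4, 109709989 to 109730070), stood at 80.1 and 84.0 CPM in Control and 73.0 and 78.7 CPM in ETV5_OE. The groups did not overlap, by a margin smaller than the gap within either pair (log2 fold change -0.11, SE 0.13, edgeR adjusted p = 0.935).

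Neither synthase passed the test. PTGES2, the membrane-associated prostaglandin E synthase 2 (gene ID 80142; chromosome 9, 128120693 to 128128440), stood at 48.9 and 48.7 CPM in Control and 52.9 and 62.1 CPM in ETV5_OE. The ETV5_OE libraries were above the controls, by less than the gap between them (log2 fold change 0.24, SE 0.15, edgeR adjusted p = 0.846). PTGES3, the cytosolic synthase that is also the HSP90 cochaperone p23 (gene ID 10728; chromosome 12, 56663349 to 56688284), stood at 281 and 283 CPM in Control and 249.9 and 265 CPM in ETV5_OE. Its ETV5_OE libraries were below the controls, with a log2 fold change of -0.13 (SE 0.13, edgeR adjusted p = 0.912). Both ETV5_OE libraries below both controls were likewise found for 18.8% of all genes tested. PTGES3 has processed copies in the genome, so its count depends on how shared reads were assigned.

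**Figure D2:**
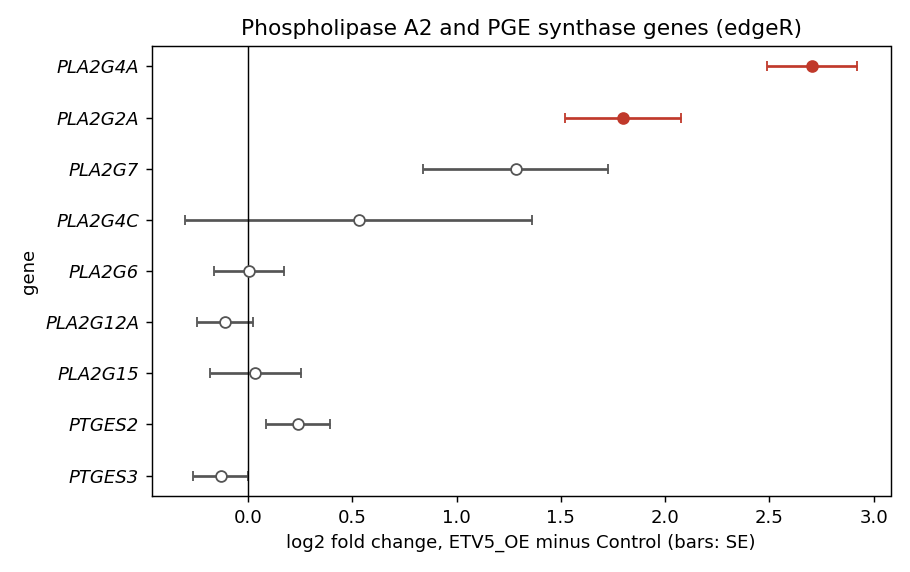
Fitted log2 fold change of each gene, ETV5_OE minus Control, with bars of 1 SE; filled red points passed an adjusted p of 0.05 in edgeR and open points did not. PLA2G4A at 2.70 and PLA2G2A at 1.80 are the filled points; PLA2G4C has the widest bar, and PLA2G6, PLA2G12A, PLA2G15, PTGES2 and PTGES3 lie between -0.13 and 0.24.

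Levels between genes can be compared only per length, here as the authors' FPKM, fragments scaled by transcript length and depth. Over the 4 libraries PTGES3 had the highest mean at 135 FPKM, at the level's 97.9th percentile among the genes of the table. PTGES2 followed at 30.1 FPKM, then PLA2G4A at 27.8, PLA2G12A at 14.4, PLA2G6 at 11.0, PLA2G2A at 7.47, PLA2G15 at 4.005, PLA2G7 at 1.33 and PLA2G4C at 0.130 FPKM. Neighbours in this order did not differ beyond their ranges for PTGES2 and PLA2G4A, PLA2G4A and PLA2G12A, PLA2G6 and PLA2G2A, and PLA2G2A and PLA2G15. The ranges of the other neighbours did not overlap. These ranges span both groups, so for PLA2G4A and PLA2G2A they include the difference between the groups. PLA2G2A stood at 3.44 and 3.52 FPKM in Control and at 10.7 and 12.3 FPKM in ETV5_OE. PLA2G15 stood at 3.90 and 4.12 FPKM in Control and at 4.37 and 3.63 FPKM in ETV5_OE.

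The order depended on the group for the enzymes that rose. In Control PLA2G4A held rank 5 of 9 at 7.49 ± 2.23 FPKM (SD, n = 2), below PLA2G12A at 15.2 ± 0.532 and PLA2G6 at 11.2 ± 1.51 FPKM. In ETV5_OE it was the second at 48.1 ± 1.83 FPKM, below PTGES3 alone, and above PTGES2 at 32.2 ± 2.48 FPKM. The 7 phospholipases together summed to 40.8 and 43.5 FPKM in Control and to 91.2 and 89.2 FPKM in ETV5_OE. PLA2G4A made up 14.5% and 20.8% of that sum in Control and 54.1% and 52.4% in ETV5_OE. PLA2G12A, the most abundant phospholipase of the set in Control at 36.4% and 35.8%, made up 14.6% and 15.7% in ETV5_OE, while its own level per length was 15.2 and 13.7 FPKM in the 2 groups. PLA2G2A made up 8.44% and 8.08% in Control and 11.7% and 13.7% in ETV5_OE.

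**Figure D3:**
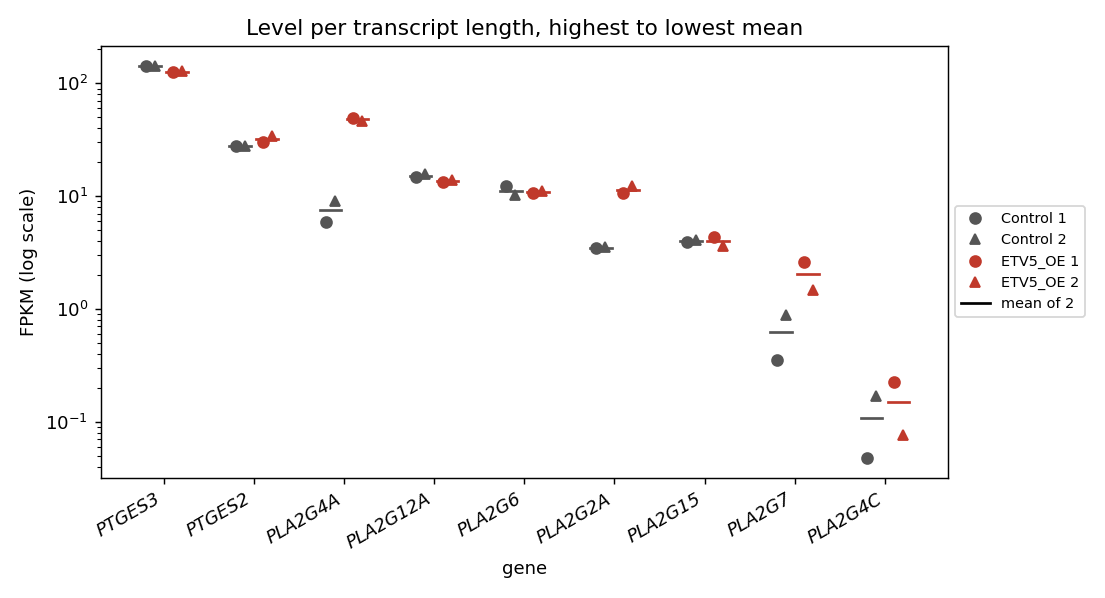
Level per transcript length in each library, in FPKM on a log axis, genes ordered by their mean over 4 libraries; circles are replicate 1, triangles replicate 2, grey Control, red ETV5_OE, and bars the mean of 2 libraries. PLA2G4A lies below PLA2G12A and PLA2G6 in Control and above PTGES2 in ETV5_OE.

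The ratio of a gene's count to its FPKM gives the transcript length that the FPKM implies, and it can move when different transcripts of a gene are counted. For PLA2G4A it was 3016 and 3019 bases in Control and 2951 and 2985 bases in ETV5_OE, so nearly the same. For PLA2G12A it was 5464 to 5477 bases and for PLA2G15 2820 to 2836 bases. For PLA2G7 it was 3977 and 3376 bases in Control and 2260 and 2990 bases in ETV5_OE, so its difference in FPKM, 0.620 against 2.04 on average, is larger than its difference in CPM. For PLA2G2A it was between 932 and 1048 bases with no order by group.

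The genes whose profile over the 4 libraries was most like that of PLA2G4A were VNN2, AGR2 and FMR1NB. Their distances, over log2 CPM centred per gene, were 0.498, 0.521 and 0.612. AGR2, an endoplasmic reticulum protein of secretory epithelium, had 5.19 and 4.77 CPM in Control and 35.3 and 34.3 CPM in ETV5_OE. VNN2, a pantetheinase of the vanin family, had 0.261 and 0.764 CPM in Control and 3.77 and 3.76 CPM in ETV5_OE, and did not pass (edgeR adjusted p = 0.113). With 4 libraries, likeness of this kind is mainly a like difference between the 2 groups.

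The nearest tested gene on one side of PLA2G4A is PTGS2, which encodes the inducible cyclooxygenase, 149 kb away (chromosome 1, 186671791 to 186680423). On the other side it is the noncoding LINC01351, 3489 kb away, at 0.620 and 1.002 CPM in Control and 0.583 and 0.292 CPM in ETV5_OE. PTGS2 had 5 and 2 counts in Control and 16 and 11 in ETV5_OE. Both ETV5_OE values were above the controls, but all were low, and the log2 fold change of 2.10 (SE 0.77) did not pass (edgeR adjusted p = 0.581).

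Other genes were taken from 10 lists holding 126 entries, chosen with earlier results of these libraries known. The lists are of the route and its neighbours, except that of HSP90 and its cochaperones, the partners of PTGES3 in its other role. Of the 126 entries, 86 were in the table and 85 tested. At the adjusted threshold 1 was higher, PLAAT3, and 1 lower, CHORDC1 of the HSP90 list. Over all genes tested 0.253% were called higher and 0.148% lower. Their median log2 fold change was 0.044, against 0.0044 for all genes. At an unadjusted p under 0.05 there were 17 of 85, where all genes tested gave 1156 of 16194 (7.14%). These shares over all genes also stand beside the counts of each list below.

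Among other phospholipase A2 genes, 16 of 24 were tested, 1 was higher and none lower in edgeR, and the median was 0.10. At an unadjusted p under 0.05 there were 3. PLAAT3, a phospholipase and acyltransferase of membranes (gene ID 11145; chromosome 11, 63574462 to 63616927), rose from 19.4 and 22.8 CPM to 44.2 and 56.7 CPM (log2 fold change 1.26, SE 0.19; adjusted p in edgeR = 0.0423). The groups did not overlap, and the call was lost without either ETV5_OE library (adjusted p = 0.268 and 0.449) and in 6 of the other 14 settings. Its promoter windows held 28 CpGs each, unlike those of PLA2G4A and PLA2G2A. The window of PLA2G2F, described next, held 1 CpG, at a start not found in a GENCODE transcript. PLA2G2F, a secreted enzyme known from skin (gene ID 64600; chromosome 1, 20139323 to 20150381), lies in the same gene cluster as PLA2G2A. It stood at 2.90 and 2.96 CPM in Control and 8.61 and 9.81 CPM in ETV5_OE, with no overlap of the groups. The fitted difference of 1.65 (log2, SE 0.29) did not pass (edgeR adjusted p = 0.0806). PLA2G5, which lies between them, had 3.26 and 1.57 CPM in Control and 2.55 and 2.67 CPM in ETV5_OE, so its groups overlapped. PNPLA2, a triglyceride lipase, had a log2 fold change of 0.59 (SE 0.22, edgeR adjusted p = 0.595).

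Of 7 regulators and receptors of these enzymes 2 were tested and neither passed. PLAA, a phospholipase A2 activating protein, had a log2 fold change of -0.11 (SE 0.14), while the phospholipid-binding annexin ANXA5 was at 0.018 (SE 0.13).

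Prostanoid synthesis genes had a median of 0.71 over 6 tested, of 10 listed. None passed in edgeR, while 3 had an unadjusted p under 0.05. AKR1C3, which reduces prostaglandins as well as steroids, stood at 1.96 and 4.58 CPM in Control and 8.25 and 6.64 CPM in ETV5_OE (log2 fold change 1.20, SE 0.43, edgeR adjusted p = 0.581). CBR1, a carbonyl reductase of prostaglandin E2, had a log2 fold change of 0.36 (SE 0.14, adjusted p = 0.609). PTGS1, the constitutive cyclooxygenase, was picked with its values in view and had 1.73 and 0.716 CPM in Control and 2.51 and 2.67 CPM in ETV5_OE (log2 fold change 1.06, SE 0.52, adjusted p = 0.766). Both cyclooxygenases were thus low in every library.

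The 2 prostanoid receptors tested, of 9 listed, were lower in both ETV5_OE libraries, and neither passed, while both had an unadjusted p under 0.05. Over all genes tested, 18.8% had both ETV5_OE libraries below both controls, and 7.14% had such a p in either direction. PTGER4, a receptor of prostaglandin E2, had 5.97 and 6.01 CPM in Control and 2.64 and 1.84 CPM in ETV5_OE (log2 fold change -1.42, SE 0.35, edgeR adjusted p = 0.263). PTGFR, the receptor of prostaglandin F2 alpha, had 35.4 and 24.0 CPM in Control and 18.6 and 17.7 CPM in ETV5_OE (log2 fold change -0.71, SE 0.22, adjusted p = 0.449). Of 5 genes of transport and breakdown 4 were tested and none passed, with a median of 0.088 and none at an unadjusted p under 0.05. The reductases PTGR2 and PTGR1 were at -0.33 (SE 0.17) and 0.28 (SE 0.18) on the log2 scale, and the dehydrogenase HPGD at 0.29 (SE 0.29).

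Lipoxygenase and leukotriene genes had a median of 0.046 over 10 tested, of 22 listed, with none passing in edgeR and 2 at an unadjusted p under 0.05. ALOX15B, the lipoxygenase of normal prostate epithelium, had 74 and 55 counts in Control and 4 and 15 in ETV5_OE (log2 fold change -2.62, SE 0.63, adjusted p = 0.249), and its value was -2.002 to -3.78 with single libraries left out. CYP4F3, a leukotriene B4 hydroxylase, had 10 and 8 counts in Control and 57 and 34 in ETV5_OE (log2 fold change 2.48, SE 0.59, adjusted p = 0.237). The leukotriene receptor CYSLTR1 had a log2 fold change of 1.34 (SE 0.62, adjusted p = 0.729). Among epoxyeicosanoid genes 5 of 6 were tested and none passed, with none at an unadjusted p under 0.05. The epoxygenase CYP2J2 was at 0.45 (SE 0.26) on the log2 scale and the epoxide hydrolase EPHX1 at 0.33 (SE 0.20).

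Genes that make arachidonate or return it to phospholipid had a median of 0.13 over 15 tested, of 17 listed. None passed in edgeR, and 4 had an unadjusted p under 0.05. MBOAT2, a lysophospholipid acyltransferase, stood at 245 and 251 CPM in Control and 151 and 135 CPM in ETV5_OE (log2 fold change -0.79, SE 0.14, adjusted p = 0.0744). The acyl-CoA synthetase ACSL3 stood at 873 and 893 CPM in Control and 549.9 and 533 CPM in ETV5_OE (log2 fold change -0.71, SE 0.14, adjusted p = 0.112). In both genes the groups were far apart relative to the gap within each pair. The fatty acid elongase ELOVL5 had a log2 fold change of -0.50 (SE 0.14, adjusted p = 0.352).

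Hydrolases of lysophospholipids and monoacylglycerols had a median of 0.022 over 15 tested, of 16 listed, with none passing in edgeR and 1 at an unadjusted p under 0.05. This was NAPEPLD, which makes N-acylethanolamines, at 0.45 (SE 0.19). GDE1, a glycerophosphodiester phosphodiesterase, was at 0.28 (SE 0.14). GPCPD1, a glycerophosphocholine phosphodiesterase, differed within Control, at 224 and 104 CPM, and stood at 85.0 and 83.2 CPM in ETV5_OE.

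HSP90 and its cochaperones, the partners of PTGES3 in its other role, had a median of 0.0035 over all 10 genes listed, with 2 at an unadjusted p under 0.05. CHORDC1, an HSP90-binding protein, fell from 89.1 and 111 CPM to 48.8 and 50.6 CPM (log2 fold change -1.01, SE 0.16, edgeR adjusted p = 0.0477) and was the 1 gene called. It passed in 5 of 16 other settings. Among those that lost the call were the removal of Control replicate 2 (adjusted p = 0.0613) or of either ETV5_OE library (0.671 and 0.449), limma-voom (0.107) and the block for replicate number (0.0518). The immunophilin FKBP5, known as an androgen-induced gene, had a log2 fold change of -0.69 (SE 0.13, adjusted p = 0.112). The luminal marker KLK3, likewise androgen-induced, was at -0.67 in the same libraries without passing, and the part of such a shift in this value was not tested. CDC37 was at 0.25 (SE 0.13).

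**Figure D4:**
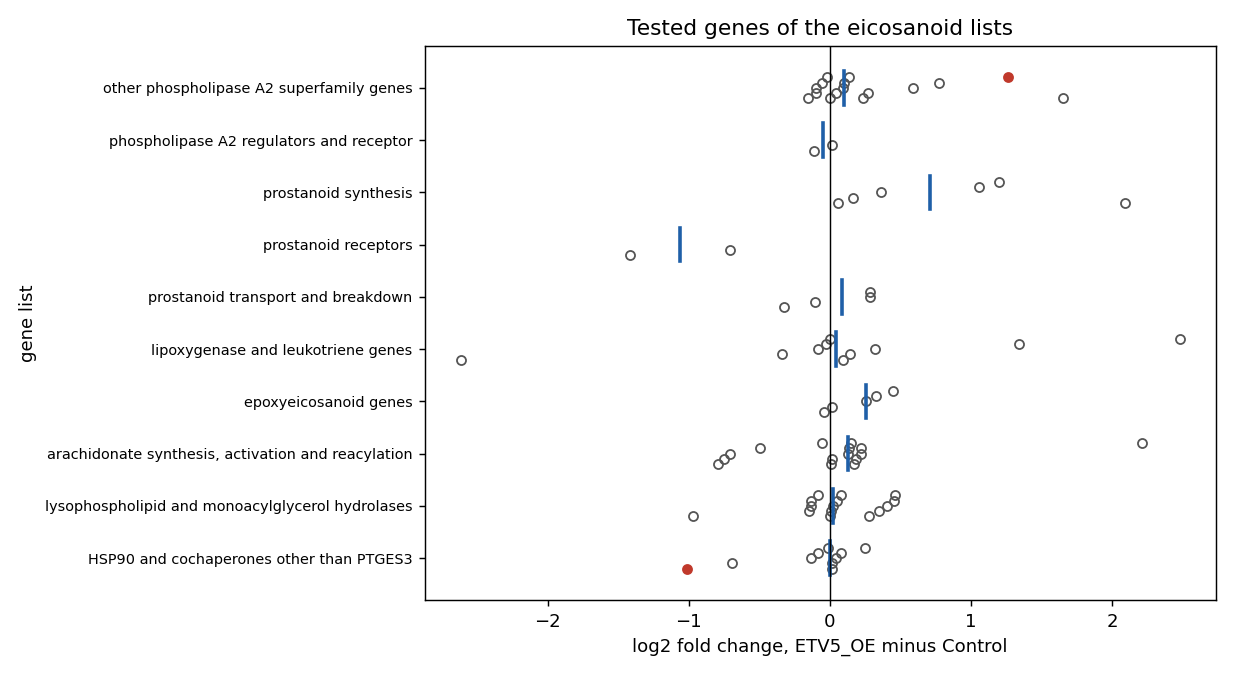
Log2 fold change, ETV5_OE minus Control, of each tested gene in the 10 lists; filled red points passed an adjusted p of 0.05 in edgeR, open points did not, and blue lines are list medians. The filled points are PLAAT3 at 1.26 and CHORDC1 at -1.01; the prostanoid synthesis median is 0.71 and the prostanoid receptor median -1.06.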

How the data were processed

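RNA of 4 LNCaP libraries was sequenced as paired ends. The submitters' processing notes name HISAT2, StringTie, Trimmomatic and the build hg38; their roles, versions and the strand setting are not given in the sources used here. Per the file headers, the authors deposited raw read counts per gene and FPKM values. Each listed gene has at least 1 read in every library. The authors deposited group means on a log2 scale, a signed linear fold of those means, in which lower genes are negative, and unadjusted p-values of a test not given in the sources used here. The deposited SD columns (a score here) were not used.

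The deposited counts went into edgeR 4.0.16 (R 4.3.3) with minimum count 10 in the default filter, TMM scaling and a robust quasi-likelihood F test, two-sided, with Benjamini-Hochberg adjustment over 16194 genes, called under 0.05. CPM used TMM-scaled totals, and SEs came from the fold change and F. Alternatives used DESeq2 1.42.0, limma 3.58.1 (on FPKM with a mean-variance trend, a setting chosen after the calls without it were seen), other scalings and filters, a block for replicate number, and the removal of single libraries with the genes tested kept. The test was also run on counts simulated from the means and dispersions of these same libraries, and nothing about the calls is read from that. Coordinates and promoter sequences are RefSeq's, GRCh38.p14, matched by gene ID for 17561 genes. Of the 9 genes of the set, 8 had a promoter entry.

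The set, lists and tests were chosen with earlier results of these data known. The text names all genes of the set, ETV5 and ETV1, in each list at most the 3 tested genes of smallest p (1 of these is not reported here), the neighbours of PLA2G4A and the 3 genes nearest to its profile. PLA2G5, PTGS1, TDRD6, single marker genes and the genes among the closing observations were named outside this rule.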

Additional observations from a re-analysis of the deposited data

How the results depend on the processing

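PLA2G4A and PLA2G2A were higher in ETV5_OE in each of 16 other settings, with log2 fold changes of 2.42 to 3.04 and 1.47 to 1.95. PLA2G4A passed in 12 of them (adjusted p from 8.52e-24 to 0.155) and PLA2G2A in 6 (6.55e-06 to 0.487). Over all genes edgeR called 65; DESeq2 called 232, limma-voom 38, edgeR without robust estimation 22, and limma on log2(FPKM + 1) and log2(FPKM + 0.1) 13 and 11. Of the set, 2 genes were called; the count was 1 with no filter, a CPM filter, limma-voom, no robust estimation and log2(FPKM + 1), and 0 with log2(FPKM + 0.1). Of the genes of the lists, which include the HSP90 list, 2 were called. That count was 9 with DESeq2, 1 with a CPM filter, and 0 with no filter, limma-voom, no robust estimation and both FPKM settings. DESeq2 called PLA2G2F, MBOAT2, ACSL3, FKBP5, CYP4F3, ALOX15B, PTGER4 and VNN2, which edgeR did not. The cause was not tested. Without a mean trend, a setting added after the data were seen, limma on log2(FPKM + 1) called 0 genes (980 at an unadjusted p under 0.05), 0 of the set and 0 of the lists.

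Leaving out 1 library gave 0 to 238 calls over all genes, 0 to 2 in the set and 0 to 4 in the lists. The zeros came without ETV5_OE replicate 1 or 2 (689 and 931 genes at an unadjusted p under 0.05), where the spread rests on the control pair and the lone library is assumed to vary like it. With the replicate number as a block, 1 gene of the set and 1 of the lists were called: PLA2G4A kept its call (adjusted p = 0.00339) while PLA2G2A (0.0631) and CHORDC1 (0.0518) lost it. Same-numbered libraries did not deviate together over genes as a whole (correlation 0.019). No pairing by number was thus seen, but this value cannot exclude one that acts on a part of the genes.

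Signs turned for values near 0. PLA2G6 was -0.039 with total counts, -0.0075 with no filter, -0.0061 with DESeq2, and -0.043 and -0.047 with log2(FPKM + 1), with or without trend, and log2(FPKM + 0.1). PLA2G15 was -0.0073, -0.0065 and -0.0089 with total counts and those FPKM settings, and ANXA5 was -0.025, -0.022 and -0.022. With 1 library left out the ranges were 0.82 to 1.92 for PLA2G7, -0.12 to 0.14 for PLA2G6, -0.093 to 0.14 for PLA2G15, -0.42 to 1.52 for PLA2G4C and -0.022 to 0.060 for ANXA5. Low counts limit PLA2G4C and PTGS2, at 6 to 19 and 2 to 16 counts per library.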

Other observations

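The following genes of the same families were picked after their values were seen, the first ones for a wide spread within a group. PLA2G4D, a cytosolic phospholipase A2 known from skin, stood at 0.477 CPM in Control replicate 2 and at 7.31, 6.90 and 6.68 CPM in Control replicate 1 and ETV5_OE replicates 1 and 2. ACSL6, an acyl-CoA synthetase of brain, was below both controls in both ETV5_OE libraries and lowest in ETV5_OE replicate 2, at 1.80 CPM, where the Control libraries had 4.89 and 5.54 CPM and ETV5_OE replicate 1 had 4.39 CPM. LPCAT2, an acyltransferase that also makes platelet-activating factor, was above both controls in both ETV5_OE libraries. It had 26 and 4 counts in Control and 58 and 59 in ETV5_OE, with a log2 fold change of 2.21 (SE 0.66) that did not pass (edgeR adjusted p = 0.409). ALOX15, a lipoxygenase that makes hydroxy acids from linoleate and arachidonate, stood at 78.9 and 74.7 CPM in Control and 73.8 and 80.0 CPM in ETV5_OE.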
